A study of Arabidopsis thaliana with 11 samples.

Results

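Arabidopsis shoots that overexpressed CBF4 were compared directly with shoots that overexpressed AtNF-YB1, each gene driven by the constitutive 35S promoter. The comparison took the 8 transgenic arrays of the 11 in the series by their titles: 4 arrays of CBF4 lines 10 and 19, and 4 arrays of AtNF-YB1 lines 3 and 6. The 3 arrays of wild-type Col-0, the parental accession, were not part of the contrast and are given as a level to read both constructs against. Each array carried amplified RNA from about 24 pooled seedlings that were 14 days old, raised on culture plates under 24 h of light and cut from their roots. The labels name no cold or drought treatment for any of the plants. The lines of a construct were independent transformants with 2 replicate pools each. The study's design description lists a further number beside CBF4 line 19; the titles use 19.

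CBF4 belongs to the CBF/DREB1 proteins, AP2/ERF activators that bind the C-repeat or dehydration-responsive element in promoters of cold-regulated (COR) genes. Several family members are switched on by cold, whereas CBF4 was described as a drought-responsive member. AtNF-YB1 is a B subunit of NF-Y, a trimeric factor that binds CCAAT boxes. Both have been studied as routes to drought tolerance, and their direct comparison shows where the transcript profiles of the transgenic shoots part.

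The array values were normalized intensities, and differences are log2 of CBF4 over AtNF-YB1 with standard errors from a limma fit. A probe set was called at a Benjamini-Hochberg adjusted p under 0.05 over the 19374 probe sets fitted. Intensities under 1.90 were raised to that floor, so levels printed as 1.90 have no order among themselves. Levels of different probe sets are not compared. The array medians before normalization were 12.9 to 18.1 in CBF4, 9.23 to 18.9 in AtNF-YB1 and 12.8 to 22.7 in wild type. After normalization, arrays of different constructs correlated at r = 0.953 to 0.975 across probe sets, arrays of 2 lines of a construct at 0.963 to 0.977 and arrays of the same line at 0.964 to 0.971. Neither transgene was read under its own name, so the overexpression itself was not measured here. Of the vector probe sets, the NOS terminator read 154 to 420 in CBF4 and 285 to 705 in AtNF-YB1 as deposited, against 0.498, -0.437 and 52.3 in wild type. The E9 terminator read 504 to 591 in CBF4 and 2.20 to 112 in AtNF-YB1, against 137, 88.3 and 1164 in wild type; the high values of both in wild type are those of replicate 3. Results were therefore also computed without that wild-type array.

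CBF4 and AtNF-YB1 shoots were alike at most probe sets and parted at a small group. Among named genes it was led by cold-regulated genes that stood higher in CBF4. Of 19371 plant probe sets, 60 (0.31%) were called, 41 of them higher in CBF4 (0.212%) and 19 lower (0.0981%). The higher calls reached 6.04 log2 with a median of 1.50, and 9 of them exceeded 8-fold. The lower calls reached -2.84 with a median of -0.92, and 0 of them exceeded 8-fold. Of the 10005 brighter probe sets, those whose higher construct mean reached the median brightness, 93.6% lay within 0.5 log2 of no difference. The count was 59 without wild-type replicate 3, with 41 of them among the 60. In the 8 transgenic arrays alone it was 40, with 23 higher and 26 among the 60. Leaving out any single transgenic array gave 96 to 240 calls, and brighter probe sets made up 30 to 62 of them, against 45 of the 60. Each of these runs kept 39 to 55 of the 60. The balance of directions was not stable either: leaving out a CBF4 array kept more higher than lower calls, whereas leaving out an AtNF-YB1 array gave 61 higher and 179 lower (line 3 replicate 1), 33 and 63 (line 3 replicate 2), 41 and 75 (line 6 replicate 1) or 42 and 86 (line 6 replicate 2). At an unadjusted p under 0.05 there were 680 higher and 864 lower.

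**Figure D1:**
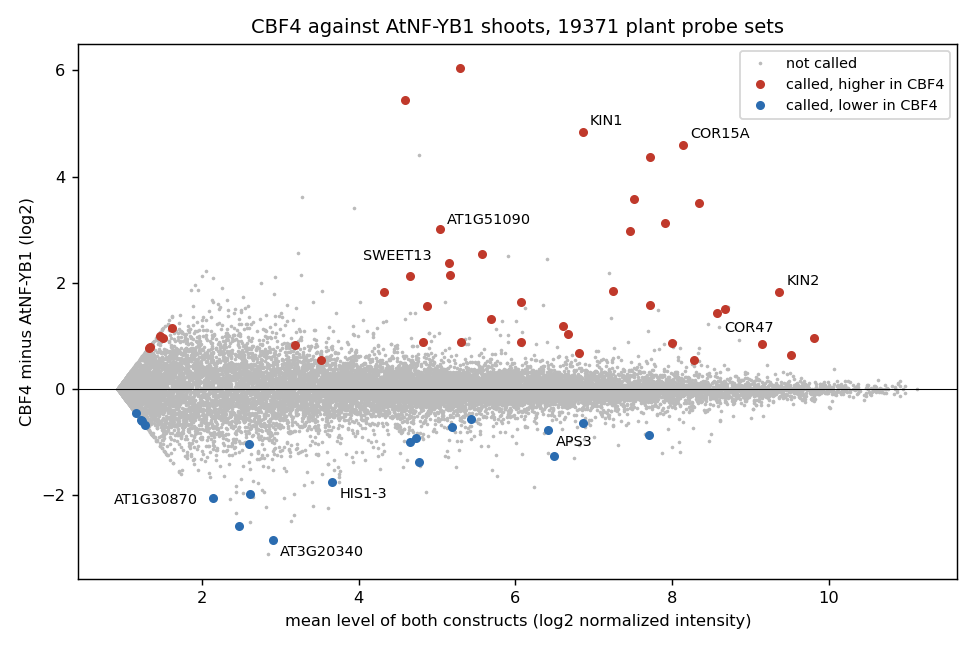
Each point is a plant probe set; the x axis is the mean level of both constructs (log2 normalized intensity) and the y axis CBF4 minus AtNF-YB1 (log2). The 41 probe sets called higher in CBF4 (red) reach 6.04, whereas the 19 called lower (blue) end at -2.84.

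KIN1 and KIN2 encode small hydrophilic proteins that accumulate in cold and drought, and COR15A and COR15B encode chloroplast proteins known to protect membranes in freezing. KIN1 read 797, 530.2, 469 and 741 in CBF4 shoots, against 19.2, 30.0, 20.7 and 18.6 in AtNF-YB1 shoots, with wild type at 40.9, 20.8 and 28.2. The difference was 4.83 ± 0.29 log2 (adjusted p = 0.00229), a 28.5-fold higher level. Every CBF4 array stood far above every AtNF-YB1 array, and the AtNF-YB1 arrays lay in the range of wild type or just under it.

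COR15A read 1294, 1450.0, 1370.1 and 1441 in CBF4, against 69.8, 96.6, 32.0 and 50.6 in AtNF-YB1 and 97.2, 47.3 and 43.8 in wild type. It was 4.59 ± 0.29 log2 higher in CBF4 (adjusted p = 0.00315). The CBF4 arrays lay close together, and the AtNF-YB1 arrays spread around the wild-type ones. COR15B was read by a pair of probe sets, and COR15A and COR15B are close copies whose signals may share probes. The probe set with the _s_at ending gave 1008, 962, 833 and 1059.5 in CBF4 and 47.0, 42.6, 45.4 and 51.1 in AtNF-YB1, with wild type at 28.5, 28.3 and 49.7, a difference of 4.37 ± 0.20 (adjusted p = 0.000917). The probe set with the _at ending gave 1052, 1045, 1083 and 1164 in CBF4 and 97.5, 81.0, 100.1 and 109 in AtNF-YB1, with wild type at 42.7, 44.3 and 112, a difference of 3.49 ± 0.31 (adjusted p = 0.0120). Both probe sets separated the constructs with no overlap, and in both the AtNF-YB1 arrays lay above wild-type replicates 1 and 2 and overlapped wild type through replicate 3 alone.

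KIN2 read 1269, 1269, 1269 and 1181 in CBF4, against 361, 383, 306 and 361 in AtNF-YB1 and 297, 278 and 360.1 in wild type. The equal values mark the same rank on 3 arrays, to which quantile normalization gives the same level. KIN2 was 1.83 ± 0.09 log2 higher in CBF4 (adjusted p = 0.00131), a smaller difference than that of KIN1 on a transcript already well expressed in AtNF-YB1 and wild-type shoots. COR47, a dehydrin that binds water and membranes in dehydrated cells, read 562, 505, 703 and 753 in CBF4, against 261, 268, 162 and 257 in AtNF-YB1 and 301, 200.1 and 232 in wild type. It was 1.42 ± 0.18 log2 higher (adjusted p = 0.0409), with no overlap between the constructs. The COR47 call was lost in 11 of 19 alternative settings, whereas those of KIN1, COR15A and the _s_at probe set of COR15B were lost in 0.

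A list of 18 cold-regulated loci of the CBF regulon, drawn up with earlier results of these data known, had 7 genes read under a name. Of these, 5 were called higher and 0 lower, where 0.212% and 0.0981% of all plant probe sets were. The list median was 1.83 log2 where the median of all plant probe sets was 0. The members without a call were AT4G30830 and LEA4-5, the second a late embryogenesis abundant (LEA) protein of the kind that protects drying cells. AT4G30830 read 11.7, 9.83, 22.6 and 10.1 in CBF4 and 3.46, 10.9, 3.81 and 3.98 in AtNF-YB1, 1.38 ± 0.45 log2 with an adjusted p of 0.453. LEA4-5 read 35.6, 2.78, 7.37 and 51.1 in CBF4 and 14.2, 3.80, 4.24 and 7.18 in AtNF-YB1, 1.13 ± 1.14 with an adjusted p of 0.899. In both genes the arrays of the constructs overlapped, and the LEA4-5 arrays scattered widely within both CBF4 lines. With each gene read by its brightest probe set, 2 of the 7 were called in the unscaled deposited values. The brightest of COR15B, the _at probe set, lost its call there, whereas its _s_at probe set kept it.

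**Figure D2:**
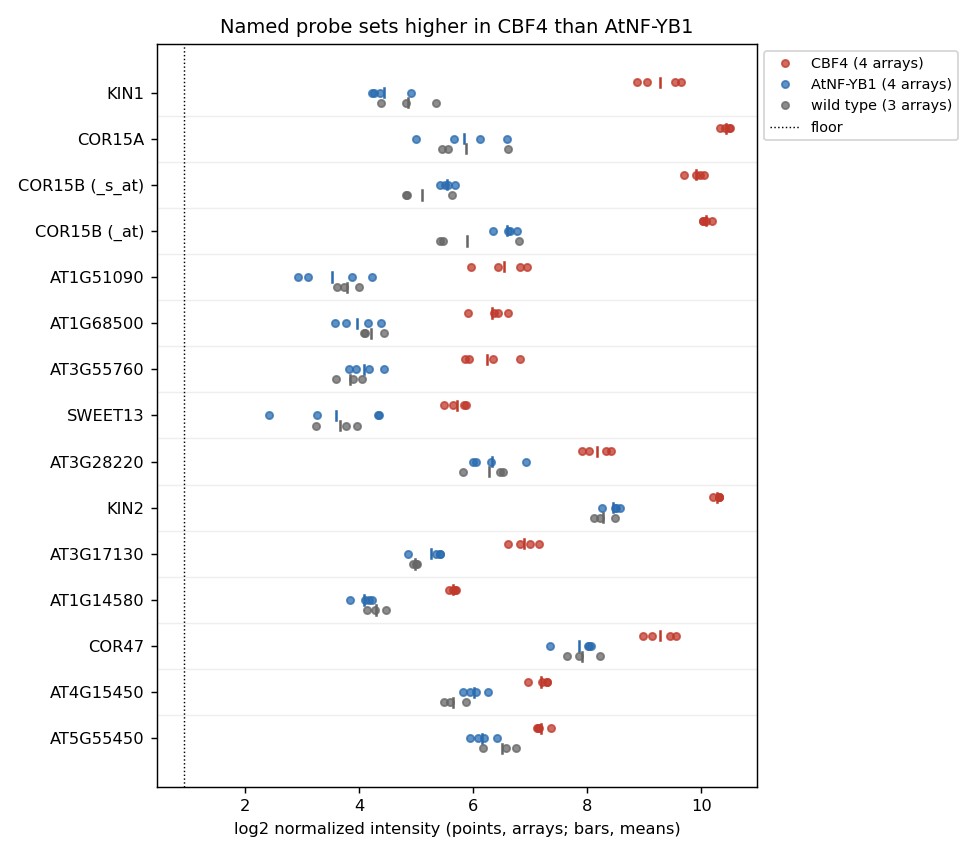
Normalized log2 intensity of the 15 highest named probe sets on each array (points) with group means (bars): 4 CBF4, 4 AtNF-YB1 and 3 wild-type arrays. The CBF4 points stand right of all AtNF-YB1 points in every row, and the AtNF-YB1 points mostly mix with those of wild type.

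Few other LEA and drought genes were called. The 9 genes named as LEA proteins or dehydrins included the same 5 called cold-regulated genes and had a median of 1.42, with 0 further calls. Of 9 genes in a drought and late embryogenesis list, 0 were called higher and 1 lower, where 0.212% and 0.0981% of all plant probe sets were. The list median of 0.27 was 0.70 without CBF4 line 19 replicate 1, -0.09 without CBF4 line 19 replicate 2, -0.03 without AtNF-YB1 line 6 replicate 1 and 0 with the floor at the 40th percentile. AT2G23120, which encodes another small LEA protein and was picked here after its values were seen, read 663 to 839 in CBF4, against 386 to 501 in AtNF-YB1 and 371 to 408 in wild type. It was 0.85 ± 0.10 log2 higher in CBF4 (adjusted p = 0.0319), a call lost in 9 of 19 settings. CBF/DREB1 factors, NF-Y subunits and the abscisic acid response list had 0 members read under a name, so no value describes them.

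Sugar movement and starch supplied further calls. Of 4 genes read in a list of that name, 2 were called higher and 0 lower. Over all plant probe sets 0.212% and 0.0981% were. The 2 genes without a call included the lowest of the list, at -0.10 log2. SWEET13 encodes a transporter that exports sucrose from leaf cells toward the phloem. It read 58.6, 44.9, 57.2 and 50.4 in CBF4, against 9.62, 5.34, 20.5 and 20.0 in AtNF-YB1 and 9.48, 13.7 and 15.6 in wild type. The difference was 2.12 ± 0.23 log2 (adjusted p = 0.0264), with the line 3 arrays of AtNF-YB1 lower than those of line 6. The call was lost in 10 of 19 alternative settings. AT3G55760, a protein that acts on the organization of starch granules, read 81.6, 61.0, 113 and 57.7 in CBF4, against 18.0, 14.1, 15.4 and 21.6 in AtNF-YB1 and 12, 16.5 and 14.9 in wild type. It was 2.15 ± 0.25 log2 higher in CBF4 (adjusted p = 0.0322), with no overlap, and the call was lost in 7 of 19 settings.

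SWEET10, from the same transporter family, read 19.3 to 29.7 in CBF4, against 7.20 to 16.0 in AtNF-YB1 and 6.94 to 15.4 in wild type. Its difference of 1.19 ± 0.26 was not called (adjusted p = 0.217), although the arrays did not overlap. TMT2, a vacuolar sugar importer, read 77.3 to 109.6 in CBF4 and 53.2 to 69.4 in AtNF-YB1, 0.56 ± 0.14 log2 with an adjusted p of 0.324. The 15 sugar transporters named by symbol had a median near 0. Of them 1 was called higher and 0 lower, where 0.212% and 0.0981% of all plant probe sets were. SWEET13 therefore stood at the far end of a family that was otherwise spread on both sides of no difference.

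The largest remaining named differences belonged to genes of mixed roles. AT1G51090 encodes a protein with a heavy-metal-associated domain, and its levels were 62.2, 86.7, 123 and 113 in CBF4, against 8.60, 18.7, 7.57 and 14.6 in AtNF-YB1 and 16.0, 13.3 and 12.2 in wild type. It was 3.01 ± 0.31 log2 higher in CBF4 (adjusted p = 0.0198). AT1G68500 read 82.9, 86.9, 60.3 and 97.3 in CBF4, against 13.6, 20.9, 17.8 and 12 in AtNF-YB1, 2.36 ± 0.23 log2 higher (adjusted p = 0.0153). In both genes the lowest CBF4 array was well above the highest AtNF-YB1 array, and wild type lay with AtNF-YB1. Each call was lost in 3 of 19 settings, among them the 8 transgenic arrays alone and the replicate block.

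AT1G14580, a C2H2 zinc finger factor, showed little spread between arrays. It read 51.5, 47.5, 51.6 and 49.9 in CBF4, against 17.1, 14.3, 18.0 and 18.8 in AtNF-YB1 and 19.4, 22.2 and 17.6 in wild type. The difference of 1.56 ± 0.09 log2 (adjusted p = 0.00186) was called in each of the 4 pairings of a CBF4 line with an AtNF-YB1 line. AT3G28220, which carries a TRAF-like domain, read 241 to 339.9 in CBF4 and 63.6 to 122 in AtNF-YB1, a difference of 1.85 ± 0.22 (adjusted p = 0.0330) that was lost in 10 of 19 settings. AT3G17130, of the family of invertase and pectin methylesterase inhibitors, read 97.8 to 142 in CBF4 and 29.0 to 42.7 in AtNF-YB1, a difference of 1.63 ± 0.12 (adjusted p = 0.00655). AT4G15450 read 125 to 158 in CBF4, against 56.2 to 76.4 in AtNF-YB1 and 44.6 to 58.9 in wild type, 1.18 ± 0.12 log2 higher (adjusted p = 0.0198). The calls of AT3G17130 and AT4G15450 were each lost in 3 of 19 settings. AT5G55450, a lipid transfer protein of the bifunctional inhibitor family, read 139 to 164 in CBF4, against 61.5 to 85.8 in AtNF-YB1 and 72.1 to 108 in wild type. Its difference of 1.03 ± 0.13 (adjusted p = 0.0497) was the nearest to the threshold of the 15 and was lost in 13 of 19 settings.

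Called differences of under 1 log2 included a pair of cell wall genes, picked here after their values were seen. AT5G62350, another member of the inhibitor family of AT3G17130, read 859 to 951 in CBF4, against 549 to 611 in AtNF-YB1 and 581 to 676 in wild type, 0.65 ± 0.07 log2 higher (adjusted p = 0.0182). AT3G09540, a pectin lyase-like protein, read 46.9 to 59.2 in CBF4, against 25.9 to 32.6 in AtNF-YB1 and 23.6 to 28.8 in wild type, 0.88 ± 0.08 log2 higher (adjusted p = 0.0120). Both were above wild type as well, without overlap, and their calls were lost in 5 and 2 of 19 settings. Of 14 enzymes of cellulose and pectin and 18 expansins and xyloglucan enzymes, 0 were called in either direction, where 0.31% of all plant probe sets were. EXPA22, an expansin at -0.82 ± 0.12 (adjusted p = 0.0781), was called lower with common-median scaling, without wild-type replicate 3 and in the 8 transgenic arrays alone. It was at the floor of 1.90 on all CBF4 arrays and read 2.10 and 1.90 in AtNF-YB1 line 3, against 5.39 and 5.92 in line 6. The EXPA22 difference therefore rests on 1 AtNF-YB1 line and on the floor. EXLA2, an expansin-like protein, read 37.8, 48.8, 37.9 and 49.7 in CBF4 and 21.6, 26.2, 20.7 and 15.7 in AtNF-YB1. Its difference of 1.06 ± 0.20 was not called (adjusted p = 0.148), although the arrays did not overlap, and was called in 2 alternative settings.

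Probe sets with no gene name held the 2 largest differences. MRT3702_23907C.2_at read 283, 253, 385 and 375 in CBF4, against 5.63, 5.11, 5.48 and 3.50 in AtNF-YB1 and 5.07, 2.58 and 6.40 in wild type, 6.04 ± 0.30 log2 higher (adjusted p = 0.00120). MRT3702_810C.2_at read 146, 101, 219 and 197 in CBF4, against 3.55, 4.35, 1.90 and 6.11 in AtNF-YB1, 5.44 ± 0.53 log2 higher (adjusted p = 0.0160). Both were low in AtNF-YB1 and wild type. MRT3702_23907C.2_at had no array at the floor, and its call was lost in 0 of 19 settings. MRT3702_810C.2_at had AtNF-YB1 line 6 replicate 1 at the floor, so its difference depends on the floor. It ran from 4.08 to 5.87 over 18 settings, and the call was lost in 2, with the floor at 1 intensity unit and with the replicate block. Of the 41 higher calls 27 had a gene name, and of the 19 lower calls 11.

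With all arrays in the fit, 19 probe sets were called lower in CBF4 than in AtNF-YB1. AT3G20340 read 4.10, 3.25, 2.36 and 1.90 in CBF4, against 18.8, 30.6, 19.6 and 14.1 in AtNF-YB1 and 10.8, 5.35 and 7.38 in wild type. The difference was -2.84 ± 0.27 log2 (adjusted p = 0.0153), with 1 CBF4 array at the floor and the other 3 near it. It ran from -3.01 to -1.09 over 18 alternative settings, and the call was lost in 3 of them, the higher floor included. HIS1-3, a linker histone variant known to accumulate under drought, read 8.12, 6.67, 7.14 and 5.93 in CBF4, against 22.2, 29.6, 21.4 and 20.6 in AtNF-YB1 and 18.2, 12 and 12.8 in wild type. Its difference was -1.75 ± 0.17 log2 (adjusted p = 0.0153), and it was the member called lower in both the drought list and the list of 7 histones. The HIS1-3 call was lost in 2 of 18 settings. In both genes the wild-type arrays stood between the constructs with no overlap on either side.

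**Figure D3:**
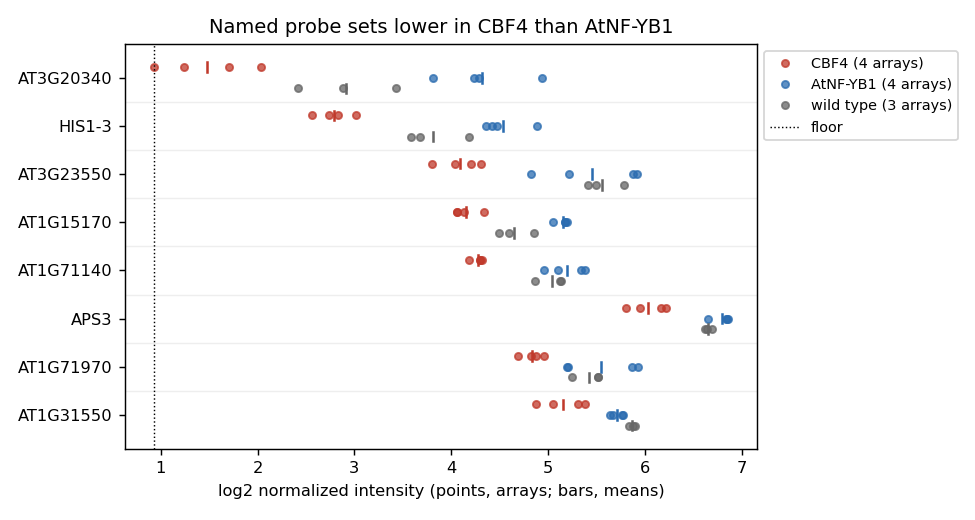
Normalized log2 intensity of the 8 lowest named probe sets on each array (points) with group means (bars): 4 CBF4, 4 AtNF-YB1 and 3 wild-type arrays. For AT3G20340, HIS1-3 and AT1G15170 the wild-type points lie between the constructs, whereas for AT1G31550 they lie above both.

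AT3G23550, AT1G15170 and AT1G71140 encode efflux carriers of the MATE family, which move metabolites and toxins across membranes. AT3G23550 read 13.9, 19.8, 16.4 and 18.4 in CBF4, against 58.8, 60.4, 37.2 and 28.2 in AtNF-YB1 and 42.5, 45.0 and 55.0 in wild type, a difference of -1.37 ± 0.15 log2 (adjusted p = 0.0258) that was lost in 7 of 19 settings. AT1G15170 read 20.2, 17.6, 16.7 and 16.7 in CBF4, against 36.7, 36.2, 36.1 and 33.2 in AtNF-YB1 and 29.0, 24.3 and 22.6 in wild type, a difference of -1.0 ± 0.09 (adjusted p = 0.0117). AT1G71140 read 18.2 to 19.9 in CBF4, against 31.1 to 41.6 in AtNF-YB1 and 29.2 to 35.2 in wild type, a difference of -0.92 ± 0.07 (adjusted p = 0.00753). The calls of AT1G15170 and AT1G71140 were lost in 1 and 2 of 19 settings. The AtNF-YB1 arrays of line 3 were above those of line 6 in AT3G23550 and AT1G71140. These 3 genes were picked among the called ones, and the rest of the family was not tallied.

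APS3, an ATP sulfurylase that starts sulfate assimilation, read 74.4, 61.9, 71.8 and 55.9 in CBF4, against 114, 100.7, 116 and 115 in AtNF-YB1 and 99.9, 103 and 98.4 in wild type. Its difference was -0.77 ± 0.10 log2 (adjusted p = 0.0422), and the call was lost in 9 of 19 settings. The other 2 sulfate assimilation genes read were not called. AT1G71970 read 25.8 to 31.1 in CBF4, against 36.6 to 61.1 in AtNF-YB1, a difference of -0.71 ± 0.08 (adjusted p = 0.0319) that was lost in 12 of 19 settings. AT1G31550, a GDSL-type esterase or lipase, read 29.3 to 41.8 in CBF4, against 49.9 to 54.8 in AtNF-YB1 and 57.3 to 59.7 in wild type. Its difference was -0.56 ± 0.05 (adjusted p = 0.0153), and the call was lost in 5 of 19 settings. The unnamed probe sets with the lowest values were MRT3702_23508C.2_at at -2.57 ± 0.30 (adjusted p = 0.0315) and MRT3702_2597C.2_at at -1.98 ± 0.25 (adjusted p = 0.0474). Both lay at or near the floor in CBF4, and their calls were lost in 10 and 14 of 18 settings.

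The wild-type arrays place most of these differences on the side of CBF4 or of AtNF-YB1, and lie midway in some. This is a description, since the calls were made on the same transgenic arrays and the fit used wild type for its spread. Among the 34 brighter probe sets called higher in CBF4, the wild-type mean lay nearer CBF4 in 4 and nearer AtNF-YB1 in 30. Without wild-type replicate 3 these counts were 3 and 31. CBF4 and wild-type arrays did not overlap in 32 of the 34, and AtNF-YB1 and wild-type arrays did not overlap in 5; over all plant probe sets the shares without overlap were 5.23% for CBF4 and 3.79% for AtNF-YB1. Among the 11 brighter probe sets called lower in CBF4, the wild-type mean lay nearer CBF4 in 1 and nearer AtNF-YB1 in 10. The 10 include AT3G20340 and AT1G15170, where it lay about midway. CBF4 minus wild type was -1.44 and -0.50 log2 there, and AtNF-YB1 minus wild type 1.41 and 0.50. CBF4 stood apart from wild type in 10 of the 11, AtNF-YB1 in 5 and both in 4.

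**Figure D4:**
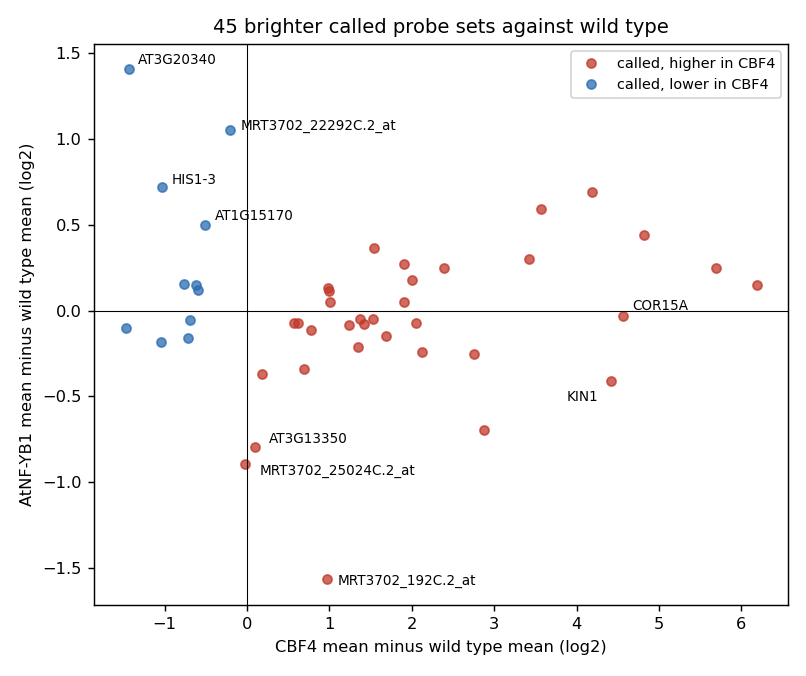
For the 45 brighter called probe sets, the x axis is the CBF4 mean minus the wild-type mean and the y axis the AtNF-YB1 mean minus the wild-type mean (both log2). Most of the 34 red points (higher in CBF4) run near the horizontal line. MRT3702_192C.2_at, MRT3702_25024C.2_at and AT3G13350 lie farthest below it, and MRT3702_22292C.2_at and AT3G20340 farthest above it. Next come MRT3702_14502C.2_at below it (-0.69), and HIS1-3 (0.72) and the _at probe set of COR15B (0.69) above it.

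A few probe sets differed between the constructs on the side of AtNF-YB1, and they are given here after their values were seen. AT3G13350 encodes a protein with an HMG box and an ARID domain, both DNA-binding folds of chromatin proteins. It read 41.1, 42.6, 37.4 and 33.4 in CBF4, against 22.4, 19.6, 21.3 and 19.9 in AtNF-YB1, and wild type at 32.2, 34.6 and 41.9 lay with CBF4. The difference was 0.89 ± 0.10 log2 (adjusted p = 0.0225), and the call was lost in 6 of 19 settings. The unnamed MRT3702_25024C.2_at read 339 to 349 in CBF4, against 171 to 211 in AtNF-YB1 and 319 to 375 in wild type. MRT3702_192C.2_at read 100.2 to 126 in CBF4, against 11.5 to 26.5 in AtNF-YB1 and 46.0 to 89.5 in wild type, so wild type stood between. MRT3702_22292C.2_at ran the other way, with 45.4 to 66.9 in CBF4, against 121 to 157 in AtNF-YB1 and 57.1 to 80.1 in wild type.

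The jasmonate and ethylene defence list held 0 calls in either direction, where 0.31% of all plant probe sets were called. Plant defensins of the PDF1.2 group, antimicrobial peptides induced by jasmonate and ethylene, are close copies whose probe sets can share signal. PDF1.2b read 201, 192, 118 and 242 in CBF4, against 474, 464, 363 and 370.0 in AtNF-YB1 and 659.5, 406 and 1086 in wild type. Its difference of -1.18 ± 0.34 was not called (adjusted p = 0.387), although every CBF4 array was below every AtNF-YB1 array. The other members of the 3-gene list had -0.99 and -1.09, also without overlap and without a call. The lack of overlap downward was seen in 2.48% of all plant probe sets, and upward in 1.99%.

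Cytochrome P450 genes, whose enzymes oxidize hormones and defence compounds, had a median of -0.37 over the 19 read, with 16 below 0 and 0 called. CYP71B22 came nearest to a call, with 9.26, 9.48, 9.88 and 14.7 in CBF4, against 31.5, 28.0, 23.4 and 25.4 in AtNF-YB1 and 33.0, 19.6 and 21.9 in wild type, -1.34 ± 0.19 log2 with an adjusted p of 0.0728. It was called in 3 alternative settings. The 5 jacalin lectins, carbohydrate-binding proteins, had a median of -0.68, all 5 below 0 and 0 called. Over all plant probe sets 0.31% were called. The 7 root markers had a median of -0.59 with 6 below 0, and JAL31 is in both lists; the part of root tissue in these values was not tested. JAL34 read 139.9, 154, 126 and 122 in CBF4, against 229.6, 239, 203 and 197 in AtNF-YB1. Its difference was -0.68 ± 0.21 with an adjusted p of 0.416, and it was called without wild-type replicate 3 (adjusted p = 0.0149) and in the 8 transgenic arrays alone. The P450 median was -0.10 with the floor at the 40th percentile and -0.17 without AtNF-YB1 line 3 replicate 1.

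**Figure D5:**
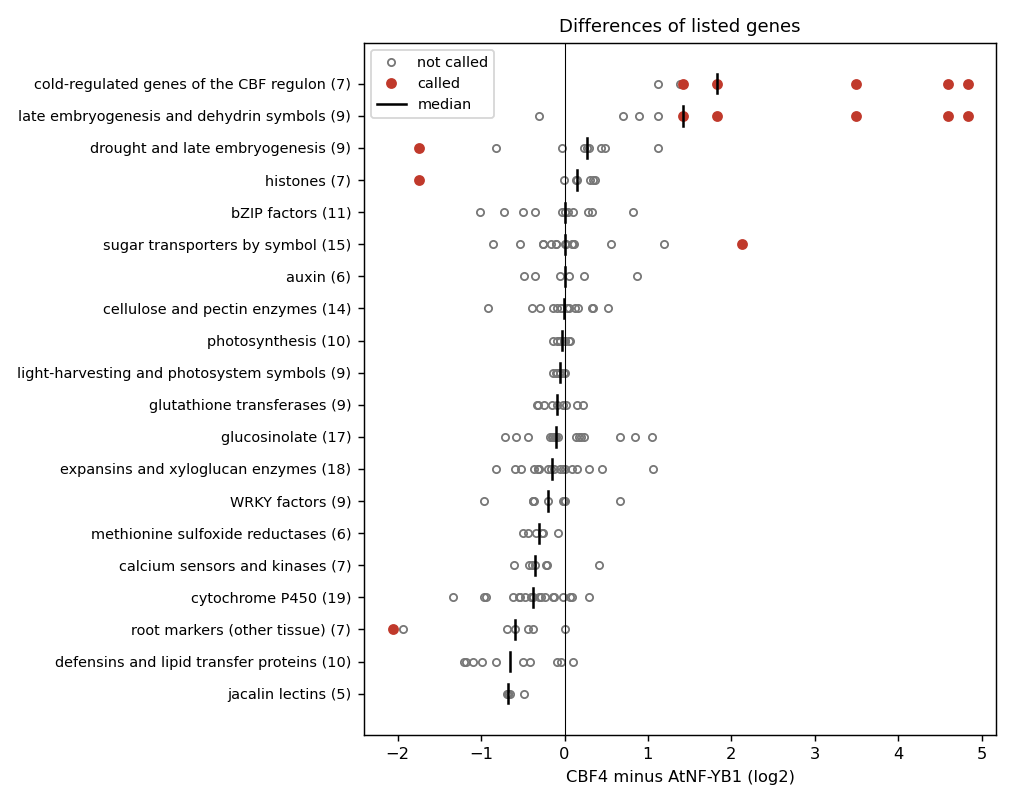
Each point is a gene of a list with at least 5 genes read under a name, with their number in brackets; the x axis is CBF4 minus AtNF-YB1 (log2), filled points were called and bars are list medians. The cold-regulated list is the highest with a median of 1.83, and the jacalin lectins the lowest with -0.68.

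Photosynthesis genes, the defining shoot markers, differed little between the constructs. The 10 genes read lay between -0.13 and 0.06 log2, with a median of -0.03 and 0 called, and their summed intensities were 15730 to 16026 in CBF4 and 15950 to 16430 in AtNF-YB1. The sums are of quantile-normalized levels, which hold equal ranks at the same level, so they cannot show that the shoots match. The list median was -0.20 with common-median scaling and -0.06 in the unscaled deposited values. The 9 WRKY factors, 11 bZIP factors and 9 glutathione transferases read also held 0 calls in either direction. Over all plant probe sets 0.31% were called. HAT2, a homeodomain-leucine zipper factor induced by auxin, read 10.2, 13.2, 3.92 and 7.81 in CBF4, against 22.5, 26.9, 23.0 and 17.4 in AtNF-YB1, -1.47 ± 0.24 log2 with an adjusted p of 0.108. Of the glucosinolate genes, UGT74B1, a glucosyltransferase of that pathway, read 190.0 to 223 in CBF4 and 264 to 310.2 in AtNF-YB1, -0.44 ± 0.10 with an adjusted p of 0.234. BGLU25, a beta-glucosidase in the same list, read 63.3 to 90.4 in CBF4 and 36.4 to 52.5 in AtNF-YB1, 0.67 ± 0.12 with an adjusted p of 0.148. In these 3 genes the arrays of the constructs did not overlap. HAT2 and BGLU25 were each called without CBF4 line 19 replicate 2.

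Genes listed as root markers gave signal in the shoot samples, and its sum varied between arrays. Of 23 root marker loci 7 were read, with 0 called higher, 1 lower and a median of -0.59. Over all plant probe sets 0.212% were called higher and 0.0981% lower. The member called lower was AT1G30870, a class III peroxidase, at the floor on 3 CBF4 arrays and 3.13 on the other, against 7.09 to 10.5 in AtNF-YB1 and 6.56 to 9.61 in wild type. Its fitted difference was -2.06 ± 0.22 log2 (adjusted p = 0.0220), which the floor sets in large part. It ran from -2.65 to -0.08 over 18 alternative settings, and the call was lost in 6 of them, among them without wild-type replicate 3. AT4G30170, another peroxidase, read 1.90 to 6.90 in CBF4 and 7.88 to 20.8 in AtNF-YB1, -1.93 ± 0.54 with an adjusted p of 0.370. The summed root marker intensities were 244 to 527 in CBF4, 439 to 566 in AtNF-YB1 and 286 to 673 in wild type, with overlapping ranges. In such bulk samples fewer root cells and less RNA per cell cannot be told apart, and the part of root tissue in the lower calls was not tested.

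The lines of a construct were compared with 2 arrays a side, so their counts cannot be set against those of the constructs with 4 a side. Between CBF4 lines 10 and 19, 3 probe sets were called (0.0155%), and between AtNF-YB1 lines 3 and 6, 5 were called (0.0258%). At an unadjusted p under 0.05 the counts were 663 and 809, and between the constructs 1544. All 8 were dim and were also called between the constructs, so those calls rest on 1 line of a construct. Leaving out 1 array moved the count between the CBF4 lines to between 0 and 98, the highest without line 10 replicate 2 and 0 without wild-type replicate 3. It moved the count between the AtNF-YB1 lines to between 3 and 207, the highest without line 3 replicate 1 and 3 without wild-type replicate 3. Pairing single lines, line 10 gave 15 higher and 9 lower calls against line 3, and 11 and 2 against line 6. Line 19 gave 27 higher and 16 lower calls against line 3, and 15 and 1 against line 6. In all 4 pairings 9 probe sets were called, all of them higher in CBF4, among them KIN1, KIN2, COR15A, the _s_at probe set of COR15B and AT1G14580. The _at probe set of COR15B was called in 1 pairing. The 9 also include AT2G16220, which was dim and at the floor on all AtNF-YB1 arrays.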

How the data were processed

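The deposited files hold linear intensities per probe set from custom Affymetrix arrays, with some values below 0. Per the labels' protocols, total RNA was amplified and labelled with biotin. How the authors summarized, background-corrected and scaled them is not given in the sources used here. Titles gave the groups and lines. The replicates are described as biological, but whether they were grown separately is not stated, so the p-values cover only the spread between pools, which may be technical.

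Of 19658 probe sets, 122 Affymetrix and 162 spike controls were left out. The other 19374 (19371 plant, 3 vector) were quantile normalized over the 11 arrays, raised to the 20th percentile (1.90, or 0.93 log2) and put on a log2 scale; 1487 plant probe sets were at that floor on all arrays. The arrays' number limits the precision. Differences were tested with limma (lmFit, eBayes, two-sided) on 5 line groups with 6 residual degrees of freedom, and p-values were Benjamini-Hochberg adjusted over the 19374 at a threshold of 0.05. The contrast is the mean of the CBF4 line means minus the mean of the AtNF-YB1 line means, and errors are standard errors. A probe set counted as bright where the higher construct's mean reached the median brightness of 4.02 log2.

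Gene names came from the platform annotation, matched by gene ID to RefSeq's TAIR10.1 table: 11598 plant probe sets had a gene name, 7773 had none, and 11547 matched. Coordinates are left out because the annotation names no genome build. In lists, a gene is represented by its brightest probe set, and genes at the floor on all arrays are not counted as read.

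The members, the gene lists and the tests were chosen with earlier results of these data known. Named were up to 15 probe sets per direction with a gene name that were called, bright, the same in direction in all 4 line pairings and without overlap, up to 2 unnamed per direction, the cold-regulated members and up to 4 members of every other list. Once values were known, the rule was narrowed to list members whose difference exceeded 2 standard errors, the cold-regulated list excepted. Wild-type levels are a description. Alternatives changed the scaling, floor, filter, arrays, block and variance model. The procedure was tested on simulated data. Fits ran in R 4.3.3 with limma 3.58.1 and statmod 1.5.0; tables and plots used Python 3.11.15, pandas 2.3.3 and matplotlib 3.10.9.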

Additional observations from a re-analysis of the deposited data

Results flagged for a closer look

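In 5 cases, 1 of the 4 arrays of a construct stood apart from the other 3, by a gap that made up a large share of the whole range of the group. The shares are of log2 values, whereas the levels are given as intensities. Over the 54 groups of 4 examined, chance alone gives such a gap in about 1 in 20. KIN2 on CBF4 line 19 replicate 2 was at 1181, where the other 3 were at 1269, so the gap was the whole range (1); the tie comes from quantile normalization of equal ranks and fixes this value, so it says nothing of the array. COR47 on AtNF-YB1 line 6 replicate 1 was at 162, below its group by 0.916 of the range. AT1G71140 on CBF4 line 10 replicate 1 was at 18.2, below by 0.891. APS3 on AtNF-YB1 line 3 replicate 2 was at 100.7, below by 0.873. AT3G17130 on AtNF-YB1 line 3 replicate 1 was at 29.0, below by 0.864.

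In 8 probe sets the lines of a construct differed in the test of the difference itself. Line 10 minus line 19 of CBF4 was 1.72 log2 for AT1G47480, -1.97 for AT5G23950 and -1.56 for AT1G48070, and the lower line lay at or near the floor in each. Line 3 minus line 6 of AtNF-YB1 was 1.34 for AT1G13520, 1.21 for MRT3702_17045C.2_at, 0.91 for MRT3702_11388C.2_at, -0.88 for AT3G56930 and -1.18 for AT1G12290. In these except AT3G56930 the lower line was at the floor on both arrays, so the differences depend on it. AT3G56930 read 7.47 and 6.50 in line 3 and 12.6 and 13.1 in line 6, with wild type at 12.2 to 12.8. All 8 were dim.

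Vector signal appeared on wild-type replicate 3. As deposited, the NOS terminator read 52.3 there, against 0.498 and -0.437 on the other wild-type arrays, and the E9 terminator read 1164, against 137 and 88.3.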

How the results depend on the processing

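Against 60 calls between the constructs (41 higher in CBF4, 19 lower), the unscaled deposited values gave 9 (7 and 2), line as a random block 117 (77 and 40, consensus correlation -0.183) and the 8 transgenic arrays 23 higher calls. Of the 60 calls, these settings kept 8, 44 and 26. Leaving out 1 array gave 59 to 240 in all, 33 to 128 higher and 17 to 179 lower; 59 was without wild-type replicate 3, and each transgenic array left out gave at least 96, the most without AtNF-YB1 line 3 replicate 1. The replicate block gave 21 calls (16 higher, 5 lower), 0 between the CBF4 lines and 1 between the AtNF-YB1 lines; same-numbered replicates deviated together unevenly (r = -0.469 to 0.414), so the numbers are not taken to pair the samples. The 3 calls between the CBF4 lines became 0 unscaled, 0 in the 8 transgenic arrays, 7 with the floor at the 40th percentile, 0 with dim probe sets left out, and 0 to 98 with 1 array left out. The 5 between the AtNF-YB1 lines became 1 unscaled, 8 with that higher floor, 0 with dim probe sets left out, and 3 to 207 with 1 array left out. With COR15B read by its _at probe set, the cold-regulated list kept 2 calls of 5 unscaled, and 4 to 5 with 1 array left out. The causes were not tested. No named probe set reversed in the settings run; the balance of higher and lower calls did with each AtNF-YB1 array left out, and the drought list's median of 0.27 became -0.03 and -0.09 in 2 of the runs with 1 array left out. Signals near the floor limit the dim calls most.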

Other observations

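Some of the largest differences between the constructs did not pass the test. Among the brighter probe sets, 5 were over 2 log2 higher in CBF4 with no overlap and no call, 3 of them named, and 4 were lower by as much, 1 of them named. AT1G16850 read 110.1 to 150.0 in CBF4, against 2.39 to 9.49 in AtNF-YB1 and 3.62 to 22.6 in wild type, 4.40 ± 0.64 log2 with an adjusted p of 0.0728. AT4G12490, of the family of proline-rich lipid transfer proteins, read 279 to 389 in CBF4, against 43.1 to 106 in AtNF-YB1 and 60.6 to 145 in wild type, 2.18 ± 0.29 with an adjusted p of 0.0556. AT2G43620, a chitinase family protein, read 116 to 295 in CBF4, against 27.4 to 45.2 in AtNF-YB1 and 11.7 to 84.2 in wild type, 2.45 ± 0.59 with an adjusted p of 0.275.

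AT5G46900, another lipid transfer protein, ran the other way, with 1.90 to 13.9 in CBF4, against 16.5 to 28.8 in AtNF-YB1 and 19.4 to 26.8 in wild type, -2.20 ± 0.78 with an adjusted p of 0.520. These genes were picked after their values were seen. In each the CBF4 arrays also stood apart from the wild-type arrays.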
